A study of Sus scrofa with 28 samples.

Results

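Ubiquitin and proteasome genes that lie outside the list of differentially expressed genes given by the study were described in the loin muscle (Longissimus dorsi) of purebred Iberian and crossbred piglets. Members were sought among the probe sets of the porcine genome array that the study had kept by a variation filter, the only ones analysed here. Taken were all those whose annotated gene symbol starts with USP, UBE, UBA, UBR, UBQLN, RNF, TRIM, FBXO, FBXW, FBXL, CUL, KLHL, PSMA to PSME, OTUD, MARCH and a digit, HERC, SENP or SUMO. These prefixes took 59 probe sets with a single gene symbol. Of them, 9 probe sets of 6 genes were left out because the gene stands in the list of the study, and 3 more that measure FBXO32 and USP18 were left out by name, which left 47 member probe sets of 38 genes, among 5226 probe sets and 1993 named genes in the table. A further 3 probe sets annotated with several genes were set aside. The members were selected by name, but from probe sets that had passed a filter on their variation over these same arrays. Leaving out the listed genes also removes probe sets that had been chosen for a difference on these arrays.

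The crossbred group (DU×IB) held 14 male piglets of Duroc sires and Iberian dams, and the purebred group (IB) held 14 male piglets of Iberian sires and dams. All 28 piglets were sampled at weaning, at 28 days of age, with a separate array for the RNA of each piglet. Since the dams of both groups are Iberian, the groups differ in sire breed. By the methods of the study the sows were also in separate groups, mated to boars for IB and inseminated for DU×IB. Sire breed, crossing, sow group, way of mating and litter cannot be told apart here. The methods of the study give fewer litters than piglets, and far fewer for the crossbred group than for the purebred one, so DU×IB piglets in particular share litters. The labels do not give the litters, littermates were treated here as independent, and the spread and the p-values do not allow for this.

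Ubiquitin is a small protein that marks other proteins for breakdown or for a change of function. An activating enzyme (E1) loads it, a conjugating enzyme (E2) carries it, a ligase (E3) chooses the substrate, deubiquitinases remove it, and the proteasome degrades proteins that carry ubiquitin chains. NEDD8 and SUMO are related modifiers with enzymes of their own, and NEDD8 activates the cullin ligases. In skeletal muscle this system is known for the breakdown of myofibrillar proteins during atrophy and for the turnover of proteins during growth.

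The members covered most steps of the pathway, but probe sets of the pathway that the variation filter removed are not seen here. Those without an annotated gene symbol are not seen either, and 2830 of the 5226 probe sets have none. Ligases of the RNF and MARCH families made up 13 probe sets of 8 genes, and substrate adaptors of cullin ligases made up 7 probe sets of 7 genes. The remainder were 4 UBE2 genes of the E2 family, 4 deubiquitinases, 4 probe sets of the SUMO proteases SENP5 and SENP6, 3 probe sets of UBA3, 3 UBE3 and UBE4 ligases, 3 TRIM ligases, the cullins CUL1 and CUL2, the proteasome subunits PSMA3 and PSMC6, UBR7 and UBAC1. For 32 genes there was 1 probe set, and the other 6 genes had 15 probe sets together. Values are log2 levels after GCRMA, a normalization that corrects the background by probe sequence, and each difference is DU×IB minus IB on that scale.

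The arrays fell into 2 hybridization series, which the 10 bacterial spike-in probe sets separate. Replicates 1 to 8 of each genetic type formed a series of 16 arrays, with mean spike-in levels from 8.93 to 9.58 in DU×IB and from 8.98 to 9.68 in IB. Replicates 9 to 14 formed a series of 12 arrays, with 6.22 to 7.01 in DU×IB and 6.19 to 6.50 in IB. Each series held both types in equal number, and the series explained a share of 0.796 of the first principal component, which held 47.3% of the variance of the table. The series was therefore used as a block in limma, the moderated linear model fitted to all probe sets, with p-values adjusted by Benjamini and Hochberg's method across the table and a threshold of 0.10. IB replicate 3 had the lowest array median (6.01, against 6.24 to 7.05 in DU×IB and 6.38 to 7.02 in the other IB piglets). None of 11 muscle fibre markers and none of 8 lymphocyte markers had a named probe set among those analysed here, so the tissue was not checked by them.

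No member passed the threshold between genetic types (0 of 47, limma, lowest adjusted p = 0.141), where 2.77% of all probe sets did. All 145 probe sets past the threshold lie in the list of the study, so this count follows from how the members were chosen. Differences lay on both sides of 0, with 23 members higher and 24 lower in DU×IB (51.1% lower, against 47.5% of all probe sets). Between 18 and 30 members were lower when single piglets were left out. After each array was centred on its median 30 were lower, with 52.3% of all probe sets. After quantile normalization 26 were lower, with 50.1% of all probe sets. The median difference of the members was -0.01, against 0.02 over all probe sets, and their differences ran from -0.56 to 0.88. The median size of a difference was 0.10, against 0.15 over the 4919 probe sets outside the list of the study. An unadjusted p under 0.05 was seen for 4 members (8.51%), against 9.03% of the probe sets outside that list and 13.8% of the whole table. With 1 probe set per gene, the one of highest mean level, 20 of 38 genes were higher and 18 lower. In these bulk samples fewer cells of a type and less RNA per cell cannot be told apart.

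**Figure D1:**
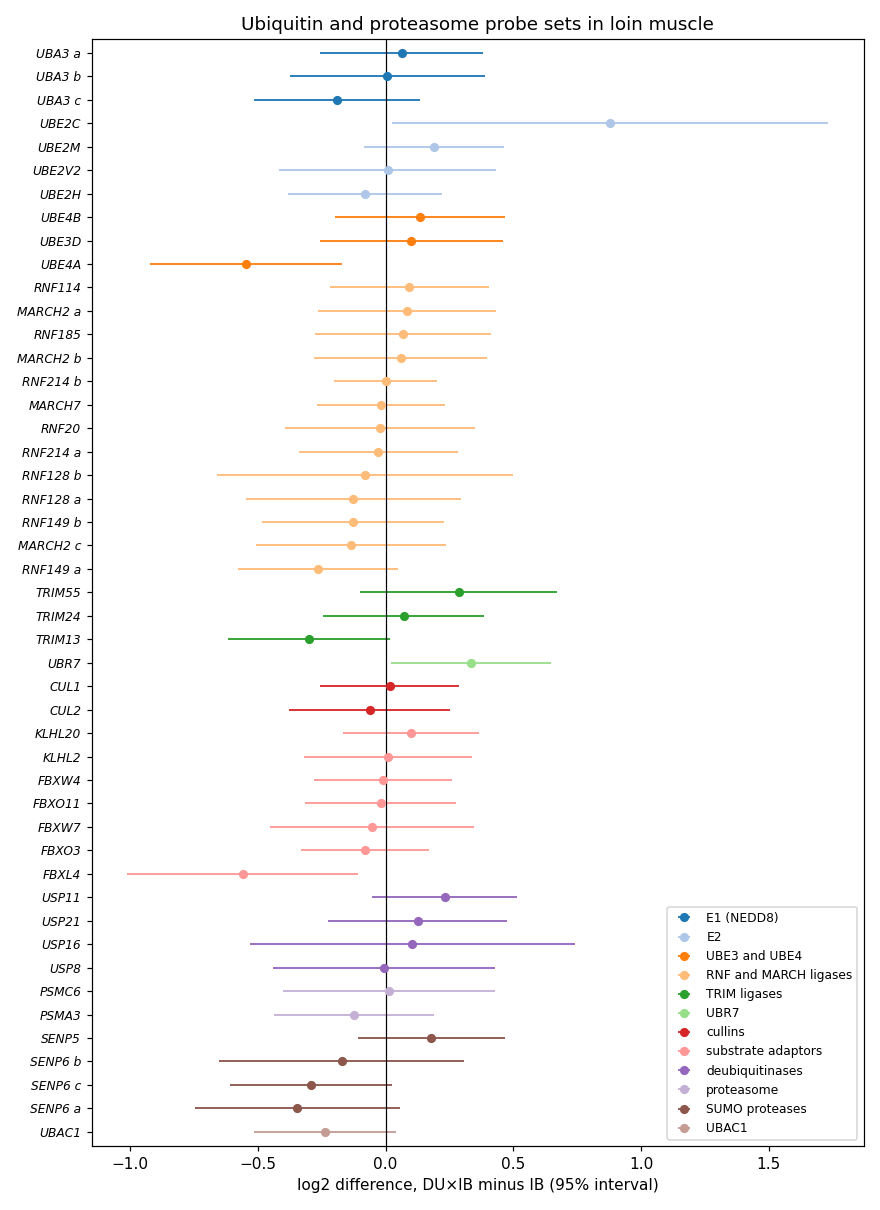
Difference between genetic types (DU×IB minus IB, log2 scale) for the 47 member probe sets, by step of the pathway, with 95% intervals from limma with the hybridization series as block. Letters tell apart probe sets of one gene, from the highest mean level (a) to the lowest. The intervals of UBE4A, FBXL4, UBR7 and UBE2C do not reach 0, and none of the 4 passes the adjusted threshold of 0.10.

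The member of lowest p was UBE4A, which has a U-box and lengthens ubiquitin chains. Its level in the series of 16 ran from 5.45 to 6.95 with a median of 5.92 in DU×IB, against 5.67 to 7.73 with a median of 6.49 in IB. Levels in the series of 12 ran from 4.83 to 5.51 with a median of 5.06 in DU×IB, against 5.26 to 6.40 with a median of 5.59 in IB. In both series the groups overlapped, and the level of 13 of the 14 DU×IB piglets was under the median of the IB piglets in their series. The mean was 5.63 ± 0.61 in DU×IB and 6.18 ± 0.71 in IB (SD, n = 14 each), a difference of -0.55 with an SE of 0.18 (95% interval -0.92 to -0.17). This did not pass the threshold (limma, adjusted p = 0.141), and the difference was of like size in the series of 16 (-0.49) and the series of 12 (-0.62). Of the alternatives run, 5 put UBE4A past the threshold, as the closing section gives, and the adjusted p ran from 0.0663 to 0.242 when single piglets were left out. UBE4B, its homologue and like it a U-box protein, had a difference of 0.13 with an SE of 0.16.

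FBXL4 is an F-box protein known for its role in the turnover of mitochondria. Among the 16 arrays its level ran from 6.95 to 7.40 with a median of 7.22 in DU×IB, against 6.77 to 8.28 with a median of 7.17 in IB. Among the 12 arrays it ran from 6.37 to 7.59 with a median of 6.89 in DU×IB, against 7.20 to 9.40 with a median of 7.92 in IB. The 2 types lay on top of each other in the first of these series, and in the second only the lowest IB piglets reached into the range of DU×IB. The difference was -0.56 with an SE of 0.22 over all piglets (limma, adjusted p = 0.230), made up of -0.02 in the series of 16 and -1.28 in the series of 12.

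UBR7, a ligase with a UBR box, had a difference of like size in both series, on the higher side. Its level ran among the 16 arrays from 5.42 to 6.85 with a median of 6.22 in DU×IB, against 5.37 to 6.52 with a median of 5.89 in IB. It ran among the 12 arrays from 6.60 to 7.22 with a median of 6.91 in DU×IB, against 5.91 to 7.07 with a median of 6.59 in IB. The ranges overlapped widely, yet 13 of the 14 DU×IB piglets lay above the IB median of their series. The difference was 0.34 with an SE of 0.15 (limma, adjusted p = 0.321), with 0.34 in the series of 16 and 0.33 in the series of 12.

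UBE2C, the conjugating enzyme that works with the anaphase-promoting complex in dividing cells, had the largest SD within genetic type and series of all 47 members (1.19). For the series of 16 its level ran from 4.11 to 7.86 with a median of 5.34 in DU×IB, against 2.42 to 6.65 with a median of 5.53 in IB. For the series of 12 it ran from 5.36 to 7.22 with a median of 5.79 in DU×IB, against 2.25 to 5.73 with a median of 4.99 in IB. Its lowest levels were those of IB replicates 3 and 9, and the medians of the series of 16 were in the opposite order to their means. The mean was 5.77 ± 1.07 in DU×IB and 4.89 ± 1.28 in IB (SD, n = 14 each), a difference of 0.88 with an SE of 0.42 (limma, adjusted p = 0.340). Without IB replicate 9 the difference was 0.67.

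**Figure D2:**
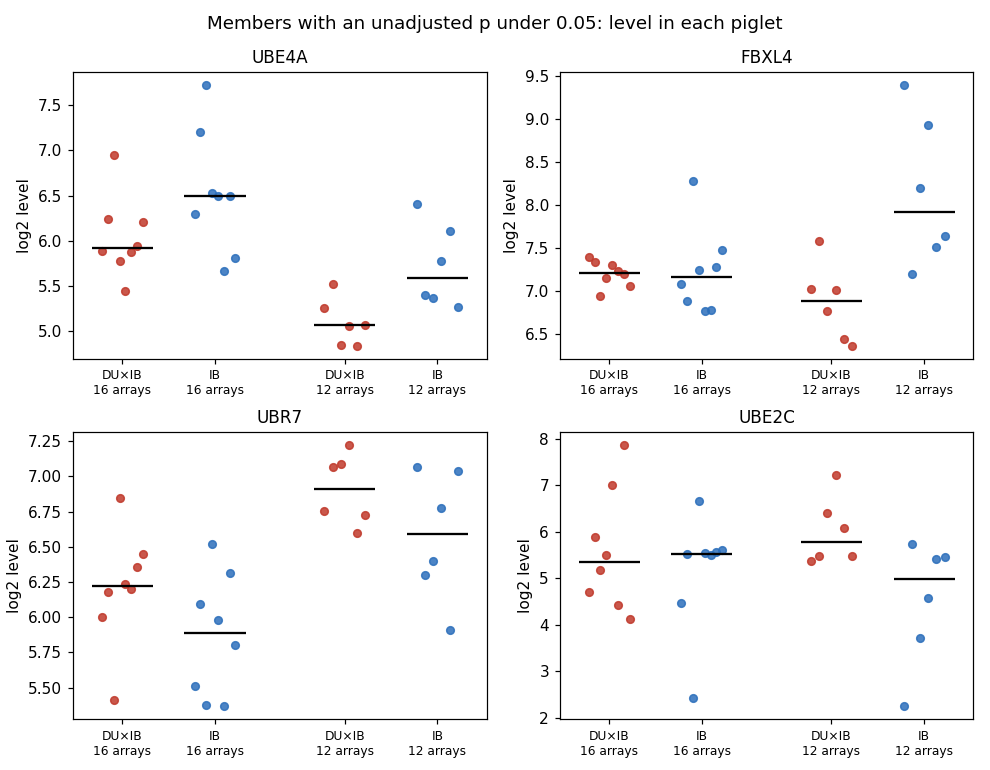
Log2 level of UBE4A, FBXL4, UBR7 and UBE2C in each of the 28 piglets (points), with DU×IB (red) left of IB (blue), first for the 16 arrays of the larger series and then for the 12 of the smaller one, and the median of each group as a black line. The medians of FBXL4 are 7.22 in DU×IB and 7.17 in IB among the 16 arrays, and 6.89 in DU×IB and 7.92 in IB among the 12, while the medians of UBE4A stand in the same order in both series.

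Among UBA3 and the UBE2 genes, no member other than UBE2C had a difference above 0.19 in size. UBA3, the catalytic subunit of the enzyme that activates NEDD8, was measured by 3 probe sets with differences of 0.06, 0.01 and -0.19. The last of these comes from a dim probe set (mean log2 level 3.16, under the 4 taken here as the limit for dim). UBE2M, which conjugates NEDD8, had a difference of 0.19 with an SE of 0.13, and 12 of the 14 DU×IB piglets lay above the IB median of their series. The conjugating enzyme UBE2H and the E2 variant UBE2V2 had differences of -0.08 and 0.01.

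The RNF and MARCH ligases were spread around 0, with 5 probe sets higher and 8 lower in DU×IB, a median of -0.02 and a range from -0.27 to 0.09. The lowest of them was the first probe set of RNF149, with 6.76 ± 0.43 in DU×IB and 7.03 ± 0.67 in IB (SD, n = 14 each). Its difference was -0.27 with an SE of 0.15, and the other RNF149 probe set gave -0.13 with an SE of 0.17. For the membrane-bound ligase MARCH2 the 3 probe sets gave 0.08, 0.06 and -0.14, the last from a dim probe set (mean log2 level 3.56). The pairs of RNF128 (-0.13 and -0.08) and RNF214 (-0.03 and 0.00066) were also near 0. RNF128 is known for its role in T cell anergy.

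The 3 TRIM ligases differed in sign, and none passed the threshold. TRIM13, a ligase of the endoplasmic reticulum membrane, averaged 7.09 ± 0.34 in DU×IB and 7.39 ± 0.47 in IB (SD, n = 14 each), a difference of -0.30 with an SE of 0.16 (limma, adjusted p = 0.400). In 12 of the 14 DU×IB piglets its level was under the median of the IB piglets in their series. TRIM55, also known as MuRF2, is a ligase of the sarcomere, and it averaged 10.1 ± 0.48 in DU×IB and 9.83 ± 0.73 in IB, a difference of 0.29 with an SE of 0.19. The lowest level of TRIM55 was that of IB replicate 3 (7.83), and without that piglet the difference was 0.15. UBAC1, a subunit of a ligase complex, had a difference of -0.24 with an SE of 0.14.

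The cullins, scaffolds of the largest ligase family, gave 0.02 (CUL1) and -0.06 (CUL2), each with an interval that spans 0. Apart from FBXL4, the 6 other substrate adaptors lay between -0.08 and 0.10. Among the deubiquitinases USP16, which acts on histone H2A, had a difference of 0.10 with an SE of 0.31, and its level ran from 4.38 to 8.38 in DU×IB, against 3.33 to 8.30 in IB. USP8 and USP21 had differences of -0.01 and 0.13.

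Of the proteasome, PSMA3, a subunit of the outer ring of the core particle, ran among the 16 arrays from 10.2 to 11.4 with a median of 11.0 in DU×IB, against 9.96 to 11.6 with a median of 10.8 in IB. Among the 12 arrays PSMA3 ran from 11.2 to 11.8 with a median of 11.7 in DU×IB, against 11.6 to 12.6 with a median of 11.8 in IB. The groups overlapped in both series, less so among the 12 arrays. PSMC6, an ATPase of the regulatory particle, ran among the 16 arrays from 9.63 to 11.3 with a median of 11.1 in DU×IB, against 9.13 to 11.6 with a median of 10.8 in IB. Its levels among the 12 arrays ran from 11.4 to 12.2 with a median of 12.0 in DU×IB, against 11.8 to 12.4 with a median of 12.1 in IB. The ranges of PSMC6 overlapped in both series. The differences of PSMA3 and PSMC6 over all piglets were -0.12 (95% interval -0.44 to 0.19) and 0.01 (95% interval -0.40 to 0.43).

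The 2 hybridization series gave different pictures for the members. In the series of 16, 0 members had an unadjusted p under 0.05 (4.42% of all probe sets), and none passed the adjusted threshold (0.172% of all probe sets). In the series of 12, 11 members had an unadjusted p under 0.05 (21.2% of all probe sets) and 4 passed the adjusted threshold (4.38% of all probe sets). The sign was the same in both series for 19 of 47 members (40.4%), against 55.6% of all probe sets. In the series of 12, 32 members were lower in DU×IB (68.1%, against 55.1% of all probe sets), while 18 were lower in the series of 16 (38.3%, against 41.2%). The mean level over all members ran from 7.00 to 7.24 in DU×IB and from 7.13 to 7.44 in IB in the series of 12, and from 6.54 to 7.11 in DU×IB and from 6.21 to 6.99 in IB in the series of 16.

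**Figure D3:**
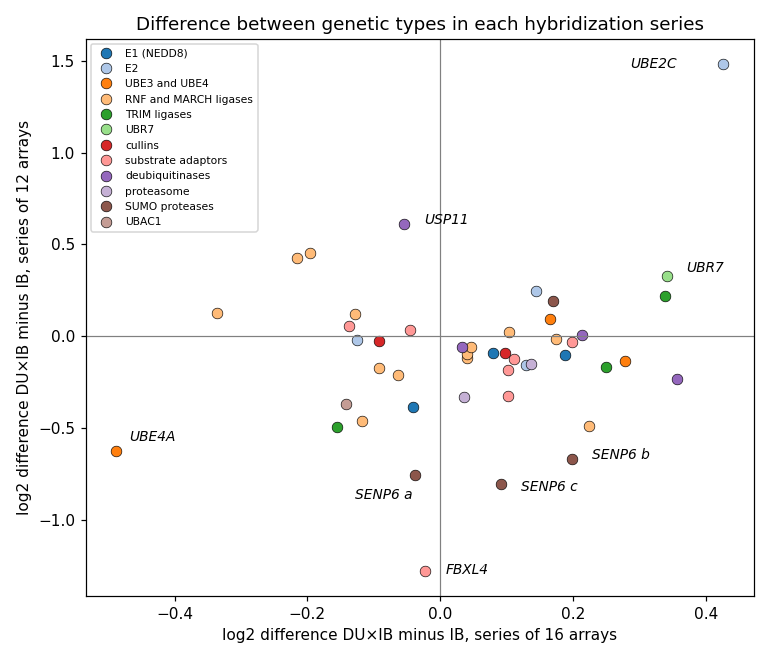
Difference between genetic types (DU×IB minus IB, log2 scale) of each member probe set among the 16 arrays of one series (horizontal axis) and the 12 arrays of the other (vertical axis), coloured by step of the pathway. UBE4A, UBR7 and UBE2C lie in quadrants of equal sign, FBXL4, USP11 and the 3 SENP6 probe sets lie near 0 or in the opposite direction in the series of 16, and 19 of the 47 points share their sign.

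The 4 calls in the series of 12 belong to SENP6, FBXL4 and USP11. SENP6 shortens chains of SUMO, and its probe set with the highest mean level ran from 7.05 to 7.97 with a median of 7.46 in DU×IB, against 7.94 to 8.75 with a median of 8.26 in IB. The second probe set ran from 6.54 to 7.65 with a median of 7.52 in DU×IB, against 7.51 to 8.41 with a median of 8.03 in IB. The third ran from 5.26 to 6.10 with a median of 5.47 in DU×IB, against 5.51 to 7.03 with a median of 6.36 in IB. The groups overlapped at their edges for the first probe set and more widely for the other two, each time with the lower median in DU×IB. The differences in this series were -0.76 (limma, adjusted p = 0.0864), -0.67 (adjusted p = 0.114) and -0.80 (adjusted p = 0.0968). They were -0.04, 0.20 and 0.09 in the series of 16, and over all piglets they were -0.35, -0.17 and -0.29, with adjusted p from 0.412 to 0.830.

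USP11, a deubiquitinase known from DNA repair, had the 2 types fully apart in the series of 12. Its levels were 6.86, 6.38, 6.61, 6.40, 6.59 and 6.42 in the DU×IB piglets, against 5.42, 6.19, 5.77, 5.98, 5.99 and 6.27 in the IB piglets. Every DU×IB piglet of that series stood above every IB piglet, and the means differed by 0.61 (limma, adjusted p = 0.0918). The share of all probe sets that were as fully apart was not counted, and 4.38% of them passed the threshold in this series. Among the 16 arrays USP11 ran from 6.48 to 7.38 with a median of 6.87 in DU×IB, against 6.46 to 7.39 with a median of 6.90 in IB, so that the ranges coincided. Over all piglets the difference was 0.23 with an SE of 0.14 (limma, adjusted p = 0.502).

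The calls of the series of 12 depended on single piglets. When each of its 12 piglets was left out in turn, an alternative chosen after the values were seen, 8 members passed without IB replicate 10 (14.1% of all probe sets did), 3 without IB replicate 14 (4.61%), 2 without DU×IB replicate 10 (3.31%), 1 without DU×IB replicate 9 (2.97%), and 0 in each of the other 8 fits (0.440% to 1.59%). FBXL4, USP11 and the first SENP6 probe set each passed in 3 of these 12 fits and the third SENP6 probe set in 1, with differences that kept their sign throughout. The difference between the series was itself tested as an interaction. No member passed (0 of 47, limma, lowest adjusted p = 0.685), nor did any of the 5226 probe sets. An unadjusted interaction p under 0.05 was seen for 3 members, FBXL4, USP11 and the third SENP6 probe set (6.37% of all probe sets had one).

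**Figure D4:**
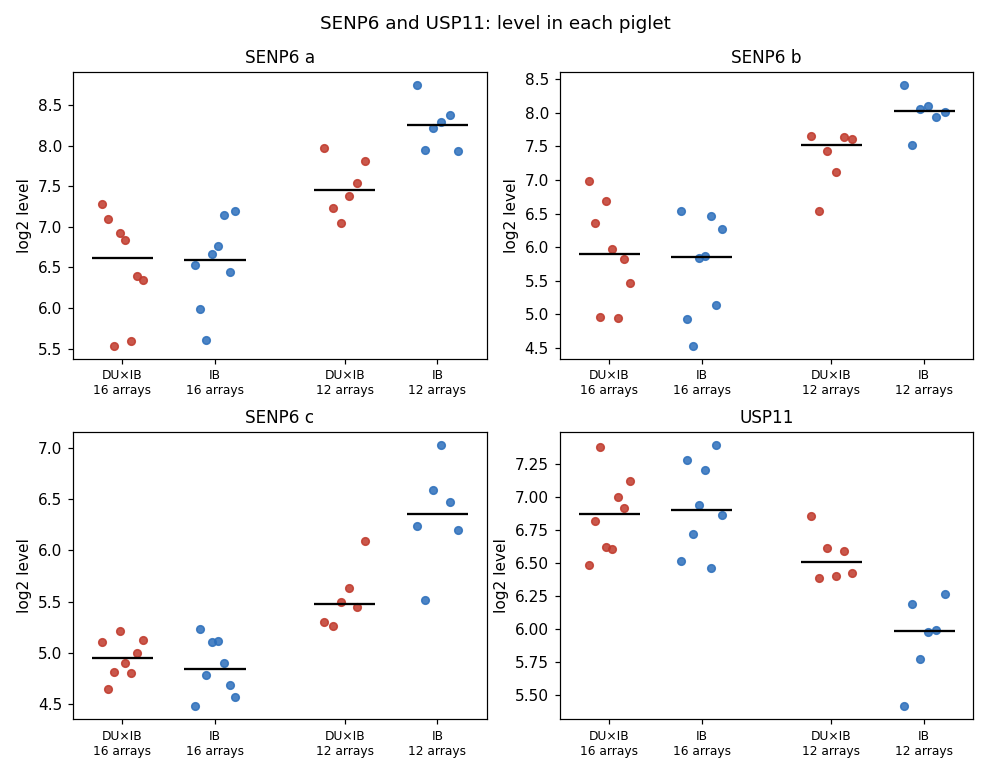
Log2 level of the 3 SENP6 probe sets (a to c, from the highest mean level to the lowest) and of USP11 in each of the 28 piglets (points), with DU×IB (red) left of IB (blue) in each hybridization series and group medians as black lines. In the series of 12 USP11 runs from 6.38 to 6.86 in DU×IB and from 5.42 to 6.27 in IB, without overlap. How many of all probe sets are without overlap was not counted.

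Between the series themselves, with genetic type held constant, 43 of the 47 members differed past the threshold, 30 higher and 13 lower in the series of 12 (80.1% of all probe sets differed). The labels do not say what else sets the series apart, so piglets and hybridization cannot be told apart in this comparison.

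Within genetic type and series, part of the members moved together from piglet to piglet. Over the 28 piglets and the 1081 pairs of members, the median Pearson's r of the residuals was 0.10, against 0.04 over all pairs of probe sets, and 38.9% of the member pairs were negative. The pairs named here were chosen after their values were seen. UBA3 and UBE2V2 (0.931) and UBE2V2 and PSMC6 (0.917) had the highest values between different genes, and the lowest was that of USP21 and USP8 (-0.838). The points share their array, and the common level of the array moved with these values. With the median of the array, 16 members had an r above 0.7 (34.0%, against 18.8% of all probe sets), the highest being USP16 (0.919) and PSMC6 (0.916). An r below -0.7 was seen for 3 members, USP21 (-0.785), the second probe set of RNF214 (-0.728) and UBE4A (-0.702), against 2.16% of all probe sets. Without IB replicate 3 these counts were 13 above 0.7 (27.7%, against 12.7% of all probe sets) and 1 below -0.7 (USP21, -0.778), with -0.612 for RNF214 and -0.572 for UBE4A. After each array was centred on its median, the median r of all member pairs was 0.03. The named pairs then had 0.849 (UBA3 and UBE2V2), 0.856 (UBE2V2 and PSMC6) and -0.843 (USP21 and USP8). Centring removes only a shift that is equal for all probe sets, so it cannot show whether these pairs move together apart from the array level. The leading component of the residuals held 24.5% of their variance, with an r of 0.944 in size with the array median. Without IB replicate 3 the r of UBA3 and UBE2V2 was 0.892 and that of USP21 and USP8 was -0.812.

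**Figure D5:**
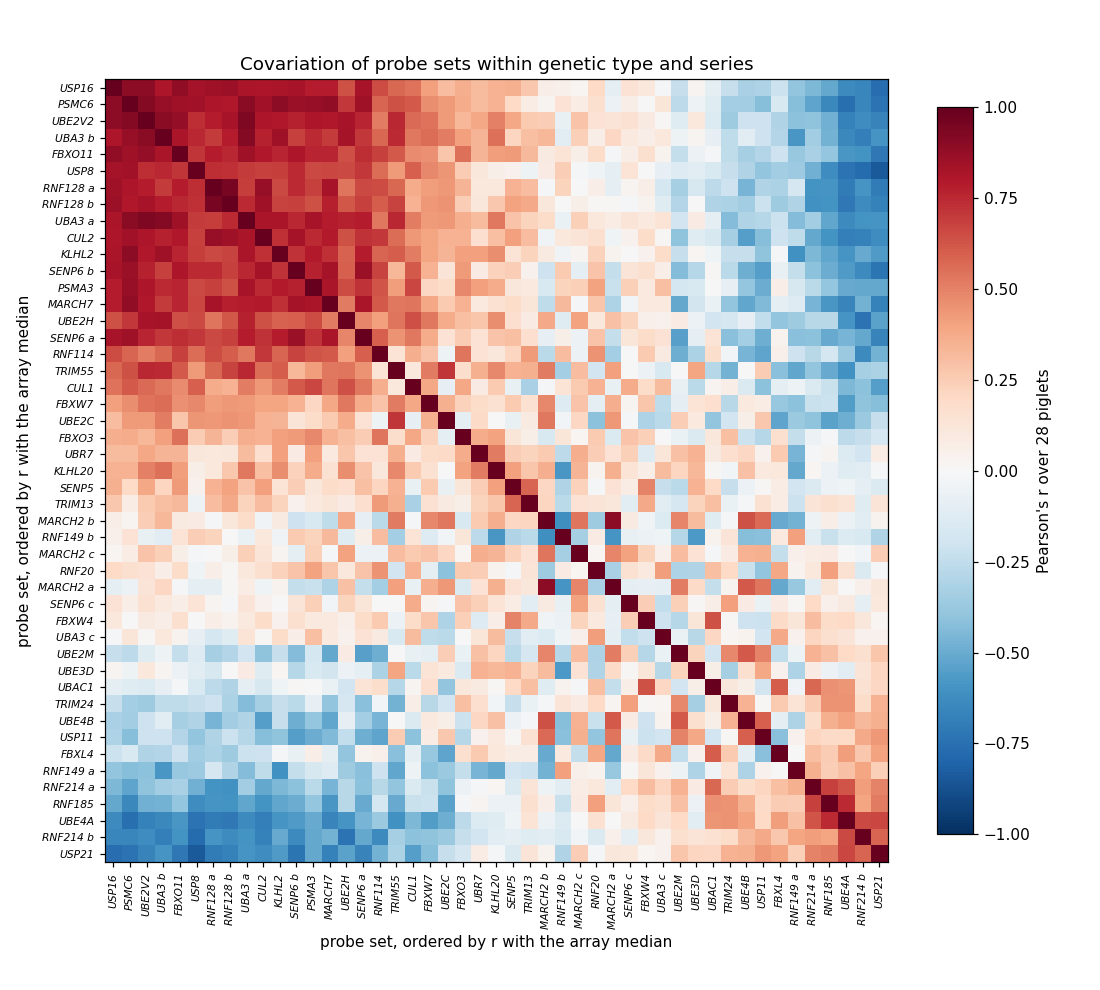
Pearson's r between member probe sets over 28 piglets, after the mean of each genetic type in each series was removed, with the probe sets in both directions ordered by their r with the array median. A block of 16 probe sets from USP16 to the first SENP6 probe set has an r with the array median above 0.7, and USP21, RNF214 b and UBE4A at the far end have one below -0.7, where without IB replicate 3 only USP21 does.

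Probe sets of one gene did not always follow each other. The pair of RNF128 had an r of 0.947, the first 2 of UBA3 had 0.916, the first 2 of MARCH2 had 0.891 and the first 2 of SENP6 had 0.865. The third probe set of UBA3 had only 0.139 and 0.104 with the other two, and the third of SENP6 only 0.124 and 0.127. That UBA3 probe set was dim, with a mean of 3.16 over all arrays against 9.17 and 7.51 for the other two. The pairs of RNF214 (0.417) and RNF149 (0.407) lay between. Values of these genes are therefore given by probe set.

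The spread among piglets was also compared, and no member passed. The absolute deviation from the median of type and series was smaller in DU×IB for 36 of 47 members (76.6%, against 72.9% of all probe sets), and without IB replicate 3 for 27 (57.4%, against 63.1%). This comparison was chosen after the values were seen (0 of 47 past the threshold, limma, lowest adjusted p = 0.521, with 0.0191% of all probe sets past it). An unadjusted p under 0.05 was seen for 5 members (7.39% of all probe sets). They were the second probe set of RNF149, with an SD within series of 0.25 in DU×IB and 0.61 in IB, FBXL4, with 0.31 in DU×IB and 0.67 in IB, TRIM24, with 0.26 in DU×IB and 0.48 in IB, and 2 probe sets of MARCH2.

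Other genes of the pathway were read from a list of 94 symbols that are not members, of which 16 had a named probe set. Past the threshold were SIAH2, a RING ligase, which was higher in DU×IB (8.11 in DU×IB and 7.52 in IB, difference 0.59, limma, adjusted p = 0.0270), and MYLIP, a ligase for lipoprotein receptors, which was lower (7.44 in DU×IB and 8.11 in IB, difference -0.67, adjusted p = 0.0931). Both stand in the list of the study, which chose its genes on these arrays. Of the 13 outside that list, 10 were lower and 3 higher in DU×IB, with a median of -0.14, and none passed. Of all probe sets outside that list, 47.9% were lower. ISG15, among the lower ones, is counted again with the interferon response genes below. UBD, a ubiquitin-like modifier induced by cytokines, averaged 4.22 in DU×IB and 5.61 in IB (difference -1.39, SE 0.50, limma, adjusted p = 0.172). The atrophy ligase FBXO32 had a difference of -0.63 with an SE of 0.52.

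Markers of other cells and interferon response genes were read beside the members. Over all probe sets, 47.5% were lower in DU×IB. Of 15 macrophage markers 5 had a named probe set, and all 5 had a lower mean in DU×IB (median difference -0.50), none past the threshold. The log2 of their summed levels ran from 7.73 to 8.92 in DU×IB and from 8.01 to 10.8 in IB. Of 10 interferon response genes 7 had a named probe set, again all with a lower mean in DU×IB (median difference -0.82) and none past the threshold. Their log2 summed level ran from 8.18 to 12.1 in DU×IB and from 8.27 to 14.5 in IB. Of the remaining lists 3 of 6 endothelial, 2 of 7 adipocyte and 1 of 7 fibroblast markers had a named probe set. The fibroblast marker with one, POSTN, was higher in DU×IB (9.17 in DU×IB and 7.88 in IB, difference 1.29, limma, adjusted p = 0.0634) and stands in the list of the study, and none of the other 5 passed. A marker without a named probe set may still be on these arrays. COL1A1, on the fibroblast list, is such a marker, and the study reports it as higher in DU×IB. The part of these cells in the differences of the members was not tested.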

How the data were processed

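The authors scanned the arrays with Affymetrix software (GCOS) and deposited log2 values per probe set, made with GCRMA in BRB-ArrayTools (background by probe sequence, quantile normalization), for probe sets kept by a variation filter. No version of GCOS or GCRMA is given in the sources read. Gene symbols came from the platform annotation, where 2345 probe sets have 1 symbol, 51 several and 2830 none. Of the members, 45 of 47 matched the RefSeq gene table. Genetic types were compared with limma 3.58.1 in R 4.3.3 (two-sided, hybridization series as block), with Benjamini-Hochberg adjustment over all 5226 probe sets and 0.10 as the threshold. The labels do not name the series, and it was recovered from spike-in levels. Members, lists and tests were chosen with earlier results of these data known. Members named are those with an unadjusted p under 0.05, the one of lowest p in each class, proteasome subunits, genes with several probe sets and the 3 of largest SD. Others were named after their values were seen. On simulated data (5226 probe sets, 50 changed per size) limma called 16 of those shifted by 0.5 (log2), 47 of those by 1 and 49 of those by 2, and 9 that were not shifted. The simulated noise was independent between probe sets and between arrays. It lacked the component shared within arrays and the shared litters, so these counts do not cover such noise. The number of arrays limits the precision. Figures were drawn with Python 3.11.15 and matplotlib 3.10.9.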

Additional observations from a re-analysis of the deposited data

How the results depend on the processing

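Of the members, 0 passed the adjusted threshold of 0.10, and UBE4A alone did so when the leading component of the residuals was added as a covariate (1 member, adjusted p = 0.0105), with array weights (1, adjusted p = 0.0913) and with the replicate number as a block in place of the series (1, adjusted p = 0.0766). Each replicate number lies within a single series, so the replicate block takes in the series as well. With no series block the adjusted p of UBE4A was 0.515 (limma). The labels' replicate numbers give no pairing of piglets. Same-numbered piglets deviated together with r from 0.0236 to 0.73, above 0.1 in 12 of 14 pairs, and once the series was removed it was above 0.1 in 2 of 14, with 4 of 28 piglets closest to their own number before this. The series of 12 alone gave 4 members. With each piglet left out in turn the count ran from 0 to 1, being UBE4A without IB replicate 6 (adjusted p = 0.0812) and without DU×IB replicate 3 (adjusted p = 0.0663). Members with an unadjusted p under 0.05 numbered 4, against 0 in the series of 16, 11 in the series of 12, 7 after arrays were centred on their medians (14.1% of all probe sets), 7 after quantile normalization (14.7%) and 2 to 6 with a piglet left out (2 without DU×IB replicate 7, 11 or 12). Of all 5226 probe sets 145 passed, against 52 with no series block, 9 in the series of 16, 229 in the series of 12, 289 with the residual component, 276 with array weights, 80 at a threshold of 0.05 and 103 to 221 with a piglet left out (221 without IB replicate 4). The cause of these changes was not tested. For the 26 probe sets named by rule, 947 of 1011 alternative values kept their sign, and for UBE4A, FBXL4, UBR7 and UBE2C all 156 did. All results rest on 28 arrays, and the table holds no measure of signal over background.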
